A study of Homo sapiens with 40 samples.

Results

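The genes described here are 29 that make sterols and fatty acids or control their making, found by gene name among the 44584 names of the count table. They fall into 6 genes of the mevalonate arm, 11 of the late sterol arm, 8 of the fatty acid arm and 4 regulators and transport genes, and all 29 had enough reads to be tested. RNA was measured in BT474, a HER2-amplified human breast cancer line that trastuzumab inhibits, and in BT474R, a trastuzumab-resistant derivative that is 1 clone of BT474 grown out in the antibody. Both lines were starved of serum overnight (T0) and then given fresh starvation medium with EGF at 50 ng/mL, heregulin (HRG) at 10 ng/mL or water as the vehicle, for 1 h, 12 h or 24 h. EGF is a ligand of EGFR, and HRG is a ligand of HER3 and HER4, which pair with HER2. Each of the 20 groups has 2 libraries, which makes 40. All 20 groups were serum-starved, the T0 and vehicle groups included, so that none stands for cells in full serum.

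Cells build cholesterol from acetyl-CoA through mevalonate to farnesyl diphosphate, then through squalene and lanosterol to cholesterol. Fatty acids are built by ACACA and FASN from acetyl-CoA, which ACLY or ACSS2 makes, and are then lengthened and desaturated. The genes of both routes are targets of the SREBP factors, encoded by SREBF1 and SREBF2, which INSIG1 holds in the endoplasmic reticulum when sterols are plentiful. SREBPs bind a short DNA element near the start of their target genes, usually beside boxes bound by NF-Y and Sp1.

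Promoters were read from RefSeq on GRCh38.p14 as the 250 bases before each start, and 26 of the 29 genes had at least 1, in 36 windows. The 4 printed here are those of 3 mevalonate genes that rose with both ligands in BT474 and of SREBF2, the only window with the element TCACNCCAC. Capitals mark that element and the NF-Y box CCAAT, each searched on both strands.
HMGCS1 (the upstream one of 2 windows), chr5:43313413-43313662, minus strand: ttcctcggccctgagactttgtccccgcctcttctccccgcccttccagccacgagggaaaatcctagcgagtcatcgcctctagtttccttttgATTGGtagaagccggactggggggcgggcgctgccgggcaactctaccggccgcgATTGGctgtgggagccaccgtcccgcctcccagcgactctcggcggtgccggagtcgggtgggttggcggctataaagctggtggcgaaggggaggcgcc
MVD, chr16:88663092-88663341, minus strand: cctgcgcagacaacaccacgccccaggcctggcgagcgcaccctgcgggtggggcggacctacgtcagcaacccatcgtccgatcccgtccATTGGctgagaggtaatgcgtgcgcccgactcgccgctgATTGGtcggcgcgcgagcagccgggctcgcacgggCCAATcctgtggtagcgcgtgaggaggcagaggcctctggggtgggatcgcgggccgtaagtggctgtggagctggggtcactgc
FDPS, chr1:155308616-155308865, plus strand: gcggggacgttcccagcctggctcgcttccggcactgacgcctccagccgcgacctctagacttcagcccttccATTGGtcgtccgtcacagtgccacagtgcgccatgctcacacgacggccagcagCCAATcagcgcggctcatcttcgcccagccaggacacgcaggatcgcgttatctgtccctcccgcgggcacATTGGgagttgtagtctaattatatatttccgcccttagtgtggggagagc
SREBF2, chr22:41832855-41833104, plus strand: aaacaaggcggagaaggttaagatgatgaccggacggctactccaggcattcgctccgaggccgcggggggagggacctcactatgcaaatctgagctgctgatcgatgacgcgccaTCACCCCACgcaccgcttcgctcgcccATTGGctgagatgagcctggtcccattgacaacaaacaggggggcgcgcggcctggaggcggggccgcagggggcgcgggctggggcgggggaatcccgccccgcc
The CCAAT box was in 24 of the 36 windows (66.7%) and in 32.0% of the 35116 windows of the same length over all genes. The Sp1-type box GGGCGG was in 32 of 36 (88.9%), against 42.6% of all windows. The element TCACNCCAC was in 1 of 36 (2.78%), against 0.883% of all windows, and the E-box CACGTG was in 3 (8.33%), against 6.34%. Windows of the same gene can overlap and hold the same box, as those of SC5D and ACLY do. Counted by gene, CCAAT was in 20 of the 26 genes, GGGCGG in 25, TCACNCCAC in 1 and CACGTG in 2. The share by gene over all genes was not computed. These are matches of letters in a fixed window, and they do not show which boxes are bound. TCACNCCAC was the only form of the SREBP element searched. Windows without it, those of HMGCS1, MVD and FDPS included, are not shown to lack an SREBP site. The E-box can overlap the end of TCACNCCAC, and the other motifs were counted separately. The 3 genes with no window were FDFT1, SQLE and FASN.

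Libraries held 19200632 to 29098915 counts in BT474 and 16794594 to 33387936 in BT474R. The 29 genes took 0.910% to 1.74% of a BT474 library and 1.66% to 3.79% of a BT474R library. Luminal epithelial markers were present in every library, with KRT8 at 980.3 CPM (counts scaled to a common library size) or more and EPCAM at 169.9 CPM or more, and GATA3 ranged from 10.6 to 546 CPM. Of 9 markers of fibroblasts, leukocytes and endothelium, 6 were at or near 0 in every library (COL1A2, COL3A1, DCN, PTPRC, CD3E and PECAM1, at most 19 counts). The other markers were present, with COL1A1 at 75.1 to 295 CPM, VWF at 8.61 to 23.0 CPM and CD68 at 1.06 to 5.09 CPM. Treatments were done in duplicate per the study's methods, but nothing says that the duplicates were run on separate days or passages, so p-values measure the spread between these duplicates only. In bulk RNA, a change in the share of cells and a change in RNA per cell cannot be told apart.

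At T0, levels per kilobase of exon spanned a wide range, with the fatty acid genes FASN and SCD at the top. In BT474, FASN, the fatty acid synthase, was at 298 ± 2.73 CPM per kb (SD, n = 2) and SCD, the desaturase that makes oleate, at 283 ± 7.83. FADS2, a desaturase of polyunsaturated fatty acids, was at 102 ± 2.15 and ACLY at 86.7 ± 1.86. HMGCS1, which makes HMG-CoA for the mevalonate route, was next at 76.9 ± 0.353. In BT474R the order at the top was SCD at 825 ± 6.25, FASN at 516 ± 1.2, HMGCS1 at 219 ± 3.63 and FADS2 at 208 ± 1.64 CPM per kb. The gap between HMGCS1 and FADS2 in BT474R was larger than either SD, but the SD does not cover the choice of exon length. Lengths merge all annotated exons (6627 bases for HMGCS1, 10553 for FADS2) and can exceed those of the transcripts present. The order of genes by this measure therefore depends on these lengths. STARD4, a soluble sterol carrier, was lowest in both lines, at 1.64 ± 0.217 and 2.39 ± 0.211. Some genes have a second row in the table with part of their reads, which held 81.1% of the pair's counts for ACACA, 56.9% for LSS and 33.9% for FDFT1, so the levels of these 3 genes are too low as given. The antisense gene STARD4-AS1 held 7.47% of its pair's counts with STARD4, and with the strand setting not known the reads of the pair cannot be told apart.

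Without ligand, most of the 29 genes were higher in BT474R than in BT474. At T0, 27 of 29 were higher in BT474R and none lower, where 46.9% of all genes tested were called and 25.1% were called higher. The summed CPM of the mevalonate arm was 939.6 and 932 in the BT474 libraries and 2294 and 2290.3 in those of BT474R, a ratio of means of 2.45. The late sterol arm went from 1248 and 1250.2 to 2126 and 2105 (1.69) and the fatty acid arm from 6557 and 6398 to 12942 and 12869.8 (1.99). No arm sum of one line overlapped that of the other. Sums here and below add only the first row of each gene. The fatty acid sum thus lacks the second row of ACACA, and the late sterol sum those of LSS and FDFT1. Ratios with these rows added were not computed. Median log2 differences were 1.00, 0.91 and 0.66 for the 3 arms, against 0.00 over all genes tested.

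HMGCS1 was at 508 and 511 CPM in BT474 and 1469 and 1435 CPM in BT474R at T0, a log2 difference of 1.51 (SE 0.16, adjusted p = 6.84e-10) by edgeR's quasi-likelihood test. SCD was at 1514 and 1456 CPM against 4348 and 4302, a difference of 1.54 (SE 0.11, adjusted p = 1.71e-14). FDPS, which makes farnesyl diphosphate, differed by 1.28 (SE 0.09, adjusted p = 2.52e-14), with 104 and 107 CPM in BT474 and 254 and 259 in BT474R. In each of these 3 genes both BT474R libraries were above both BT474 libraries. Of the late sterol enzymes, the largest differences were those of MSMO1, a sterol C4-methyl oxidase, at 1.23 (SE 0.12) and HSD17B7, a keto reductase, at 1.21 (SE 0.14). Both SREBP genes were higher at T0, SREBF2 by 0.93 (SE 0.05) and SREBF1 by 0.61 (SE 0.05). ELOVL6, which lengthens palmitate, and FADS1, a desaturase, were not called, at 0.29 (SE 0.17) and 0.06 (SE 0.11). PMVK, DHCR7, TM7SF2, ACACA and STARD4 each lost the call in at least 1 of the 4 cases with a library left out. The difference of ACACA was 0.19, but its larger second row was at 0.12 and was not called.

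**Figure D1:**
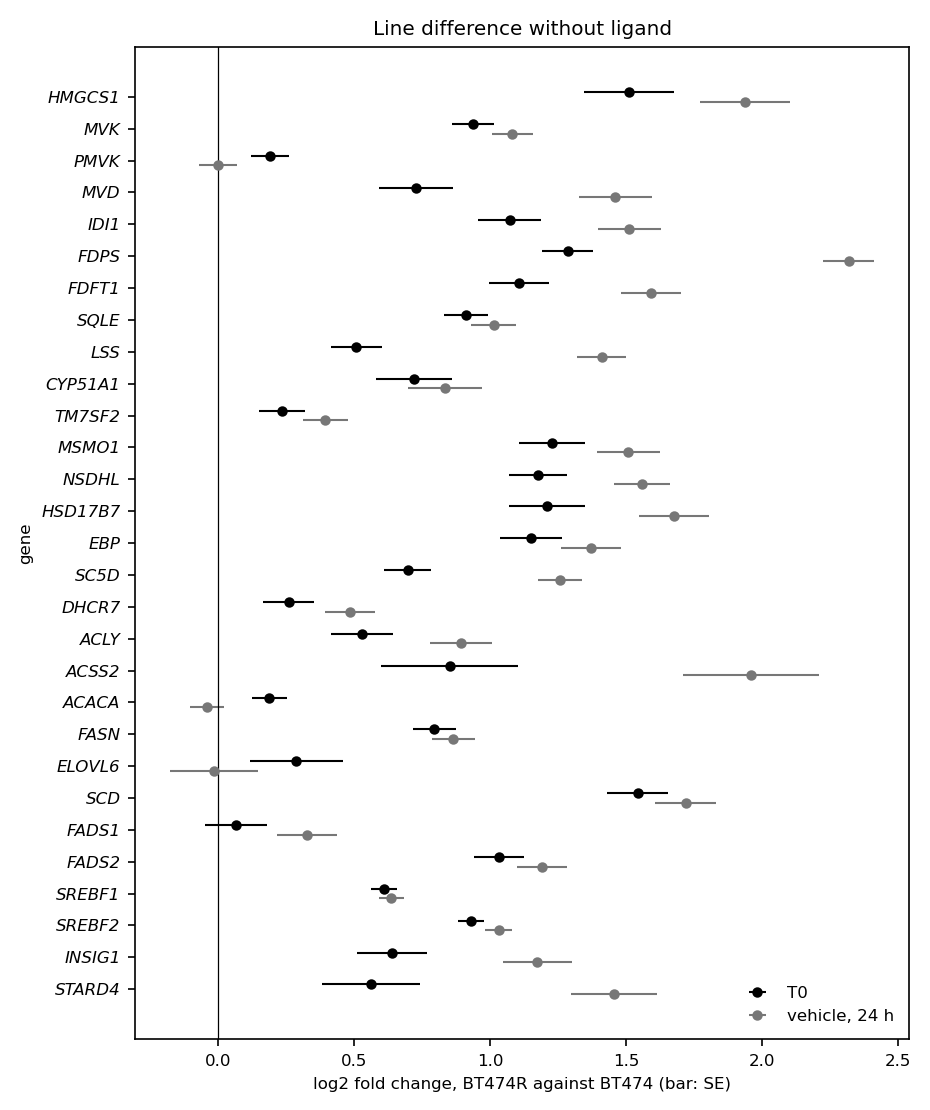
The log2 fold change of BT474R against BT474 (x axis, positive is higher in BT474R) is plotted for the 29 genes (y axis), at T0 in black and in the vehicle at 24 h in grey, with the SE as a bar. FDPS reaches 2.32 at 24 h, and PMVK, ACACA and ELOVL6 lie near 0 there.

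The genes also rose from T0 to 24 h in the vehicle, without any added ligand. In BT474, 25 of 29 were higher at 24 h and none lower, where 11.4% of all genes were called, 5.17% rose and 6.23% fell. In BT474R, 24 of 29 rose and none fell, where 13.7% were called, 6.83% rose and 6.83% fell. The median change was 0.32 in BT474 and 0.68 in BT474R on the log2 scale, and whether the lines differ in this change was not tested. In BT474 SCD rose most, from 1514 and 1456 to 2448 and 2279 CPM, by 0.67 (SE 0.04, adjusted p = 1.17e-16). In BT474R ACSS2, which makes acetyl-CoA from acetate, went from 408 and 371 to 679.8 and 1582 CPM, by 1.55 (SE 0.30, adjusted p = 0.00146). FDPS rose by 1.33 (SE 0.11) in BT474R and by 0.28 (SE 0.05) in BT474, and LSS, the lanosterol synthase, by 1.15 (SE 0.11) and 0.23 (SE 0.05). MVK and PMVK, the kinases of the mevalonate arm, were not called in either line. Without replicate 2 of the BT474R vehicle at 24 h, 14 genes rose in BT474R, the median was 0.35, and ACSS2 was at 0.80 and no longer called.

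At 24 h in the vehicle 26 of 29 genes were higher in BT474R and none lower, where 49.3% of all genes were called and 26.6% were called higher. FDPS was at 135 and 120.3 CPM in BT474 and 544 and 732 in BT474R, 4.99-fold higher. ACSS2 was at 286 and 295 CPM against 679.8 and 1582, a log2 difference of 1.96 (SE 0.25) that was 1.23 without replicate 2 of the BT474R vehicle. HMGCS1 differed by 1.94 (SE 0.17) and LSS by 1.41 (SE 0.09). The groups did not overlap in any of these 4 genes. The 3 genes not called were PMVK, ACACA and ELOVL6. Without that library CYP51A1, ACLY and INSIG1 also came down by more than 1.5 times, to 0.43, 0.54 and 0.78, and TM7SF2, DHCR7 and FADS1 were no longer called.

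**Figure D2:**
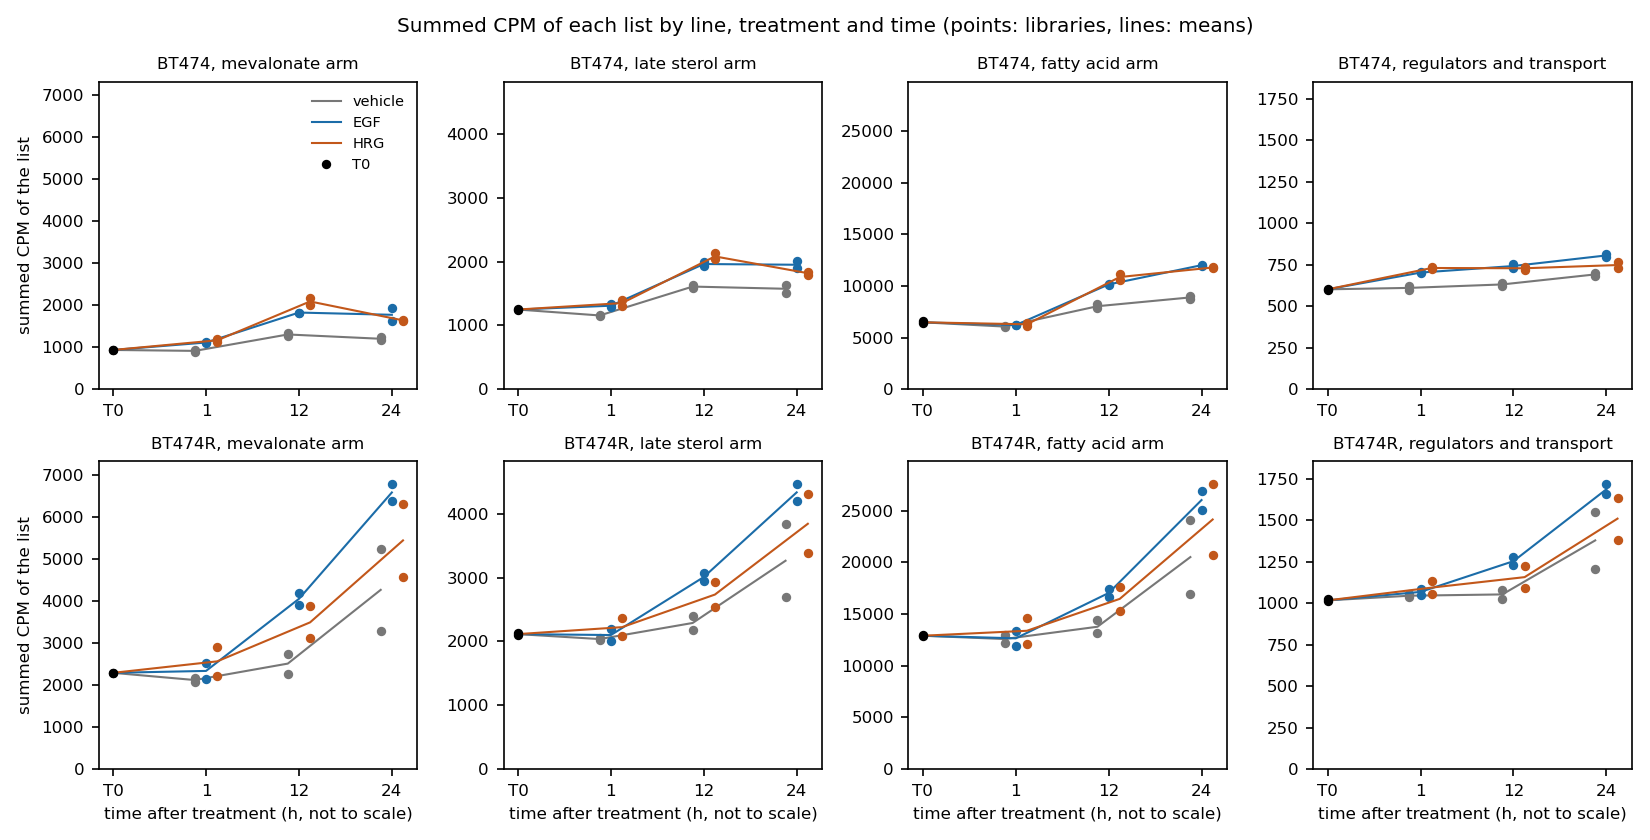
Summed CPM of each list (y axis, from 0, the same scale for both lines) at T0, 1 h, 12 h and 24 h (x axis, evenly spaced and not to scale) for vehicle, EGF and HRG, with each library as a point and lines through the means. At 24 h the mevalonate arm lies at 1617 and 1929 in EGF-BT474 and at 6389.6 and 6787 in EGF-BT474R, and the 2 vehicle libraries of BT474R lie apart.

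After 1 h of ligand in BT474, the genes that rose were mostly sterol enzymes, with INSIG1 and STARD4. EGF raised 9 of 29 genes and lowered none, where 2.19% of all genes were called, 1.65% as rises and 0.533% as falls. HRG raised 14 and lowered none, where 2.77% were called, 2.16% as rises and 0.604% as falls. By arm, EGF raised 3 of 6 mevalonate, 4 of 11 late sterol 0 of 8 fatty acid and 2 of 4 regulator and transport genes, and HRG raised 3, 7, 2 and 2. SREBF1 and SREBF2 were not called with either ligand, and the arms were not tested against each other. INSIG1, which retains the SREBP complex, was at 191 and 181 CPM in vehicle, 258 and 257 with EGF and 277 and 279.8 with HRG. It rose by 0.45 (SE 0.05, adjusted p = 1.24e-08) with EGF and 0.57 (SE 0.05, adjusted p = 2.10e-11) with HRG, and no ligand library overlapped the vehicle. STARD4 rose by 0.52 (SE 0.10) and 0.66 (SE 0.10), from 12.2 and 10.1 CPM to 16.2 and 16.1 with EGF and 17.9 and 17.5 with HRG. IDI1, the isomerase that makes dimethylallyl diphosphate, rose by 0.41 (SE 0.06) and 0.52 (SE 0.06), and SC5D, which forms the C5 double bond, by 0.26 (SE 0.06) and 0.34 (SE 0.06). In BT474 SC5D was called at 1 h only, with values of 0.09 and 0.14 with EGF at 12 h and 24 h. The 2 fatty acid genes that rose with HRG were SCD at 0.13 and FADS1 at 0.15. The EGF count was 2 without replicate 2 of the vehicle and 5 when only the libraries compared were fitted, and the HRG count was 8 without replicate 2 of HRG.

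In BT474R no gene was called at 1 h with either ligand by edgeR or by DESeq2, where 0.457% and 0.169% of all genes were called. With EGF 0.416% of all genes rose and 0.0412% fell. At an unadjusted p below 0.05 there was 1 gene with EGF and 1 with HRG. INSIG1 was at 259 and 264 CPM in vehicle, 325 and 295 with EGF and 291 and 344 with HRG, and its log2 values were 0.25 (SE 0.16) and 0.28 (SE 0.16). Without the filter on low counts, 2 genes were called with EGF and 8 with HRG. Calls over all genes then went from 111 to 226 with EGF and from 41 to 151 with HRG. The difference between lines at 1 h was not tested.

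At 12 h and 24 h in BT474, most genes of all arms rose with both ligands. EGF raised 24 of 29 genes at 12 h and 24 at 24 h and lowered none, where 16.0% and 16.4% of all genes were called. Rises made up 9.04% and 9.71% of all genes at these times, and falls 6.99% and 6.65%. HRG raised 23 at 12 h and 21 at 24 h, and lowered 0 and 1, where 25.8% and 24.1% were called. Rises with HRG made up 13.3% and 12.5% of all genes, and falls 12.5% and 11.6%. On the log2 scale the medians at 24 h were 0.35 for EGF and 0.32 for HRG, against -0.02 over all genes tested with each ligand. From these same libraries the study drew a theme of SREBP targets, FASN among them, that were not significantly regulated with HRG in BT474R. Counts of the 29 genes are therefore no independent evidence on that theme.

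**Figure D3:**
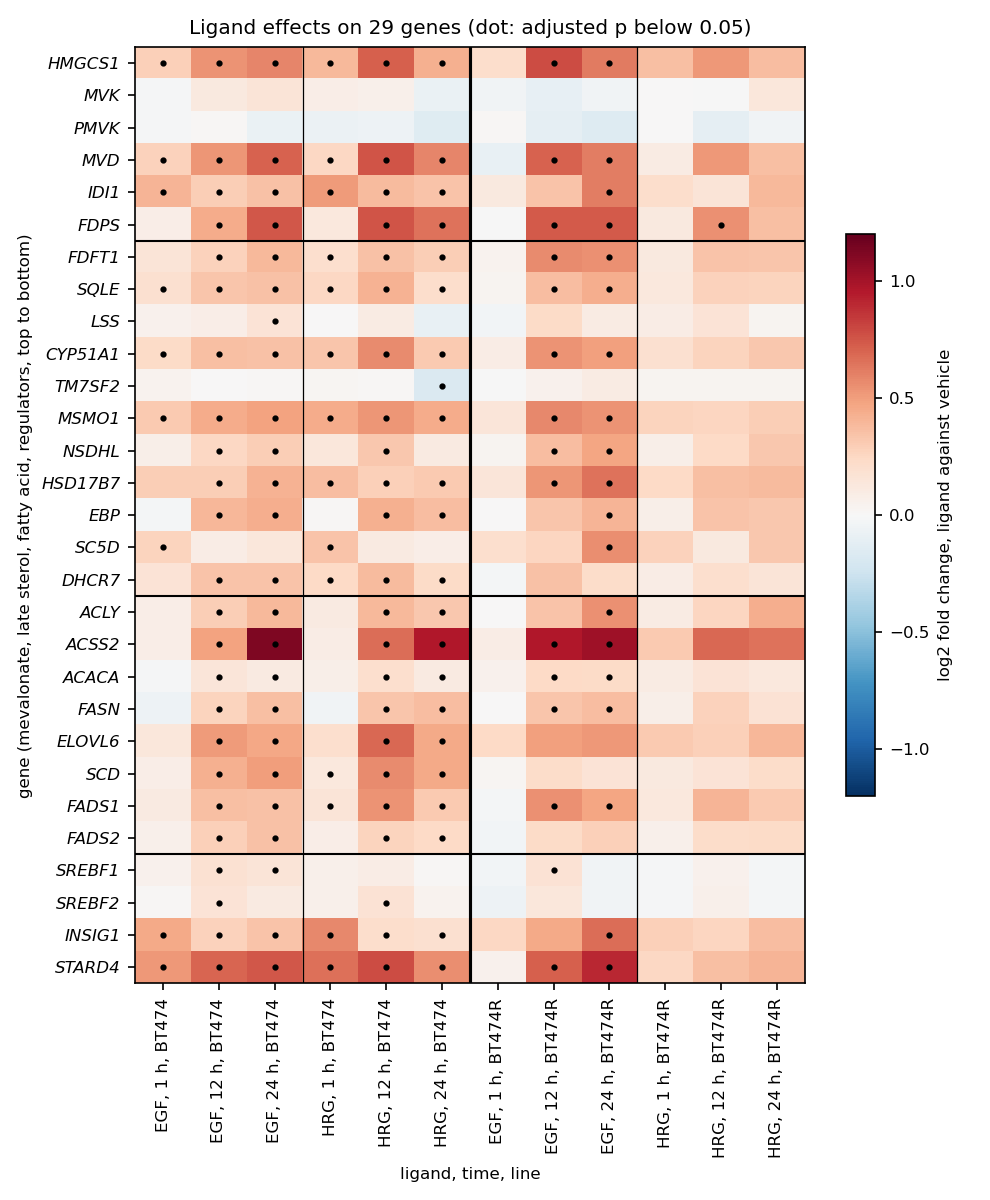
Log2 fold change of ligand against vehicle (colour) for the 29 genes (rows) in the 12 combinations of ligand, time and line (columns), with a dot where the adjusted p was below 0.05. Dots fill most of the BT474 columns at 12 h and 24 h and 19 of 29 rows with EGF in BT474R at 24 h, and there are none with HRG in BT474R at 24 h.

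In the mevalonate arm, 4 of 6 genes rose in all 4 of these comparisons in BT474, and the 2 kinases MVK and PMVK were called in none. At 24 h HMGCS1 was at 721 and 680.4 CPM in vehicle, 939 and 1172 with EGF and 937 and 974 with HRG, with changes of 0.59 (SE 0.06, adjusted p = 2.80e-10) and 0.43 (SE 0.06, adjusted p = 1.68e-07). FDPS was at 135 and 120.3 CPM in vehicle, 209 and 220.4 in EGF-BT474 and 206 and 201 in HRG-BT474, with changes of 0.74 (SE 0.05, adjusted p = 1.04e-14) and 0.65 (SE 0.05, adjusted p = 1.93e-13). MVD, which decarboxylates mevalonate diphosphate, was at 127 and 120.3 CPM in vehicle, 189 and 215 in EGF-BT474 and 187 and 190.0 in HRG-BT474, with changes of 0.70 (SE 0.06, adjusted p = 4.16e-12) and 0.59 (SE 0.06, adjusted p = 1.81e-10). No ligand library of these 3 genes overlapped the vehicle. IDI1 changed by 0.35 (SE 0.06) with EGF, a value that was 0.18 without replicate 2 of EGF, and by 0.34 (SE 0.06) with HRG. MVK was at 0.16 and -0.08, and PMVK at -0.08 and -0.15. The promoter window of MVK held 5 CCAAT boxes, the most in this arm, and that of PMVK held 0. Those of MVD and FDPS held 3 each, the 2 of HMGCS1 held 2 and 0, and those of IDI1 held 3, 2 and 0.

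In the late sterol arm, EGF raised 8 of 11 genes at 12 h and 9 at 24 h, and HRG raised 8 and 7. Each change was below that of MVD in the same comparison, with a highest value of 0.57 for CYP51A1, the lanosterol demethylase, with HRG at 12 h. At 24 h MSMO1 was highest, at 111 and 108 CPM in vehicle, 139.8 and 167 in EGF-BT474 and 153 and 150.3 in HRG-BT474. SQLE, the squalene epoxidase, was at 294 and 259 CPM in vehicle, 354 and 356 in EGF-BT474 and 336 and 311 in HRG-BT474, with changes of 0.35 (SE 0.05) and 0.21 (SE 0.05), and its HRG call was lost without replicate 2 of the vehicle. FDFT1, the squalene synthase, changed by 0.39 (SE 0.04) and 0.29 (SE 0.04), and its second row by 0.40 and 0.23. EBP, the sterol isomerase, changed by 0.44 (SE 0.05) and 0.37 (SE 0.05). TM7SF2, a sterol C14 reductase, was the only one of the 29 called lower with a ligand than in vehicle in BT474, going from 248 and 242 CPM to 219 and 222 with HRG at 24 h, a change of -0.18 (SE 0.04, adjusted p = 0.00223). In BT474 LSS was called with EGF at 24 h and in no other ligand comparison with vehicle, at 0.16, where its second row was at 0.18, and that call was lost without replicate 2 of the vehicle or either library of EGF. HSD17B7 shares reads with a pseudogene, which held 13.6% of the counts of the pair, so its change of 0.42 with EGF is uncertain.

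In the fatty acid arm, all 8 genes rose at 12 h and at 24 h with both ligands in BT474. At 24 h ACSS2 had the largest change, with 286 and 295 CPM in vehicle, 505 and 766 in EGF-BT474 and 526 and 622 in HRG-BT474. Its changes were 1.12 (SE 0.09, adjusted p = 3.20e-12) and 0.96 (SE 0.09, adjusted p = 8.73e-11), and the 2 EGF libraries were further apart than those of the vehicle. FASN was at 3673 and 3707 CPM in vehicle, 4949.6 and 4611 in EGF-BT474 and 4937 and 4719 in HRG-BT474, with changes of 0.37 (SE 0.03, adjusted p = 1.61e-10) and 0.37 (SE 0.03, adjusted p = 8.15e-11). SCD was at 2448 and 2279 CPM in vehicle, 3239 and 3483 in EGF-BT474 and 3265 and 3318 in HRG-BT474, with changes of 0.50 (SE 0.04) and 0.46 (SE 0.04). In these 3 genes every ligand library was above both vehicle libraries. ACLY, which splits citrate to acetyl-CoA, changed by 0.39 (SE 0.04) and 0.32 (SE 0.04), and ELOVL6 by 0.47 (SE 0.06) and 0.46 (SE 0.06). ACACA, which makes malonyl-CoA, had the lowest values, 0.11 and 0.11, and lost these calls without 1 of several libraries, while its larger second row was at 0.13 and 0.12 and was called.

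Among the regulators, INSIG1 and STARD4 rose at 12 h and 24 h with both ligands, and the SREBP genes had changes of at most 0.18. STARD4 was at 11.1 and 9.57 CPM in vehicle, 16.3 and 18.5 in EGF-BT474 and 15.9 and 14.7 in HRG-BT474 at 24 h, with changes of 0.75 (SE 0.10, adjusted p = 7.35e-07) and 0.56 (SE 0.10, adjusted p = 6.19e-05). SREBF1 rose with EGF, by 0.18 (SE 0.04) at 12 h and 0.16 (SE 0.04) at 24 h, and was at 0.09 and 0.01 with HRG. SREBF2 was called at 12 h only, where its change was 0.16 for EGF and 0.17 for HRG. At 24 h SREBF2 was at 269 and 267 CPM in vehicle, 306 and 275 with EGF and 287 and 272 with HRG.

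HRG and EGF were also compared with each other in BT474, at their single doses, which differ in ng/mL. At 12 h 5 genes were higher with HRG and none lower, where 2.17% of all genes were called, 1.22% higher and 0.950% lower. These were FDPS at 0.31 (SE 0.05, adjusted p = 7.16e-05), MVD at 0.23 (SE 0.06), CYP51A1 at 0.21 (SE 0.05), FADS1 at 0.18 (SE 0.04) and SCD at 0.14 (SE 0.04). FDPS was at 173 and 162 CPM with EGF and 211 and 208 with HRG, with no overlap. At 24 h LSS and TM7SF2 were lower with HRG, at -0.25 (SE 0.05) and -0.19 (SE 0.04), and none was higher, where 0.768% were called, 0.207% higher and 0.561% lower. The count at 12 h was between 1 and 4 with 1 library left out, with FDPS called each time, and it was 3 with DESeq2. The count of 2 at 24 h was 0 without replicate 2 of HRG, 5 without replicate 1 of EGF and 0 when only the libraries compared were fitted.

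The effects at 24 h were set against those at 12 h. In BT474 the EGF effect was larger at 24 h for ACSS2, by 0.64 (SE 0.13, adjusted p = 0.00766), and for FDPS, by 0.30 (SE 0.07, adjusted p = 0.032), and no other gene was called, where 0.517% of all genes were called, 0.290% as larger and 0.227% as smaller. ACSS2 was at 428 and 452 CPM with EGF at 12 h and 505 and 766 at 24 h, and in vehicle it was at 305 and 317 CPM at 12 h and 286 and 295 at 24 h. The difference of ACSS2 was 0.29 without replicate 2 of EGF at 24 h, and with 1 library left out its call was lost in 3 of 8 cases and that of FDPS in 5 of 8. The HRG effect was smaller at 24 h for HMGCS1, with a difference of -0.30 (SE 0.08, adjusted p = 0.0319), and for FADS1, with one of -0.22 (SE 0.06, adjusted p = 0.0264), where 2.50% were called, 0.764% as larger and 1.73% as smaller. With 1 library left out the call of HMGCS1 was lost in 4 of 8 cases and that of FADS1 in 5 of 8, and neither was called without replicate 1 of the vehicle at 12 h, of HRG at 12 h or of the vehicle at 24 h. In BT474R none of the 29 was called for EGF or HRG, where 0.185% and 0.0288% of all genes were called, and 3 and 0 had an unadjusted p below 0.05.

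In BT474R, EGF raised genes of every arm at 12 h and 24 h, from a higher starting level. At 12 h 15 of 29 rose and none fell, where 12.0% of all genes were called, 6.85% rose and 5.13% fell. At 24 h 19 rose and none fell, where 17.3% were called, 9.95% rose and 7.37% fell. By arm these 19 were 4 of 6 mevalonate, 8 of 11 late sterol, 5 of 8 fatty acid and 2 of 4 regulator genes. The median at 24 h was 0.61, 0.47 and 0.42 in the 3 arms, against -0.01 over all genes tested. Over the 29 genes it was 0.47, and it was 0.22 without replicate 1 of the vehicle and 0.79 without replicate 2. At 24 h HMGCS1 was at 1984 and 3382 CPM in vehicle and 4014 and 4283 with EGF, a change of 0.62 (SE 0.20, adjusted p = 0.0339) that was 0.29 without replicate 1 of the vehicle and lost its call in 3 of the 4 cases with a library left out. FDPS was at 544 and 732 CPM in vehicle and 1054 and 1076 with EGF, a change of 0.74 (SE 0.11, adjusted p = 3.70e-05). STARD4 was at 21.4 and 35.6 CPM in vehicle and 50.2 and 55.9 with EGF, a change of 0.90 (SE 0.16, adjusted p = 3.59e-04). Both EGF libraries were above both vehicle libraries in these 3 genes, and the 2 vehicle libraries were far apart.

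ACSS2 in EGF-BT474R was at 2147 and 2451 CPM against 679.8 and 1582 in vehicle, a change of 1.02 (SE 0.30, adjusted p = 0.0196) that ranged from 0.54 to 1.77 with 1 library left out and lost its call in 3 of 4 cases. FASN was at 5944 and 7496 CPM in vehicle and 8218 and 9179.9 with EGF, a change of 0.37 (SE 0.10) that was 0.21 and not called without replicate 1 of the vehicle. SCD was not called, at 0.17 (SE 0.14), with 6281 and 9275 CPM in vehicle and 8649.8 and 8885 with EGF, so that the EGF libraries lay between those of the vehicle. SREBF1 rose at 12 h by 0.18 (SE 0.05) and was at -0.04 at 24 h, and SREBF2 was at 0.13 and -0.04. The count at 12 h was 1 without replicate 1 of the vehicle or replicate 1 of EGF, with FDPS called each time, and 6 without replicate 2 of EGF. The count at 24 h was 4 without replicate 1 of the vehicle and 8 without replicate 2 of EGF, with FDPS, STARD4, HSD17B7 and SC5D called each time.

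With HRG in BT474R, values were above 0 for most genes but only 1 was called. At 12 h FDPS rose by 0.55 (SE 0.11, adjusted p = 0.00422), from 253 and 267 to 338 and 429.9 CPM, and no other gene was called, where 4.12% of all genes were called, 2.38% rose and 1.73% fell. That call was lost without replicate 1 of the vehicle or replicate 2 of HRG. At 24 h none of the 29 was called by edgeR or by DESeq2, where 2.78% were called, 1.89% as rises and 0.889% as falls, although 26 of 29 values were above 0 and the median was 0.32 on the log2 scale. With replicate 1 of the vehicle left out that median was 0.05, with replicate 2 of the vehicle left out 0.60, and with replicate 2 of HRG left out 0.05. At an unadjusted p below 0.05 there were 15 genes at 24 h, all higher with HRG, and the lowest adjusted p was 0.0643. The result depended on the processing, since 21 genes were called, all higher, without the filter on low counts. Calls over all genes went from 675 to 1147 in that setting. A replicate block gave 3, and a block within each time point, chosen after seeing the data, gave 13, all higher. Over all genes these blocks gave 785 and 939 calls. Both blocks assume that same-numbered libraries belong together, which nothing states.

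The libraries of BT474R at 24 h were spread widely in the vehicle and with HRG, and replicate 2 was the higher of each pair in every arm. The mevalonate sum was 3286 and 5251 CPM in vehicle, 4572 and 6320.1 with HRG and 6389.6 and 6787 with EGF, in the order of the replicate numbers. The late sterol sum was 2693 and 3839 CPM in vehicle, 3383 and 4307 with HRG and 4208 and 4466 with EGF. The fatty acid sum was 16956 and 24079.7 CPM in vehicle, 20734 and 27578 with HRG and 25112 and 26961 with EGF. In all 3 arms the HRG libraries overlapped those of the vehicle, and both EGF libraries were above both vehicle libraries. Within each replicate number the HRG sum was above that of the vehicle, but the numbers are not known to pair the libraries. With HRG, HMGCS1 was at 2697 and 4196 CPM, a change of 0.37 (SE 0.20) that ranged from 0.02 to 0.82 with 1 library left out. ACSS2 was at 1147 and 2374 CPM, a change of 0.65 (SE 0.30) that was 0.03 without replicate 2 of HRG. FDPS did not overlap, at 814 and 810.4 CPM with HRG, and changed by 0.36 (SE 0.11, adjusted p = 0.0787). Without replicate 2 of the vehicle 22 genes were called with HRG, and without replicate 1 of HRG 19 were, all of them higher. These libraries also stood apart over all genes. The median chi-square between the 2 libraries of a group, with 0.455 the value for sampling noise alone, was 2.56 for HRG and 1.58 for the vehicle in BT474R at 24 h, the highest of the 20 groups, and 0.595 to 1.27 in the others. It was scaled by library totals alone, without the TMM factors used for CPM. Those factors were 1.01 and 0.974 in this vehicle group and 0.984 and 0.951 in this HRG group. Without replicate 1 of HRG the calls over all genes went from 675 to 2307.

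**Figure D4:**
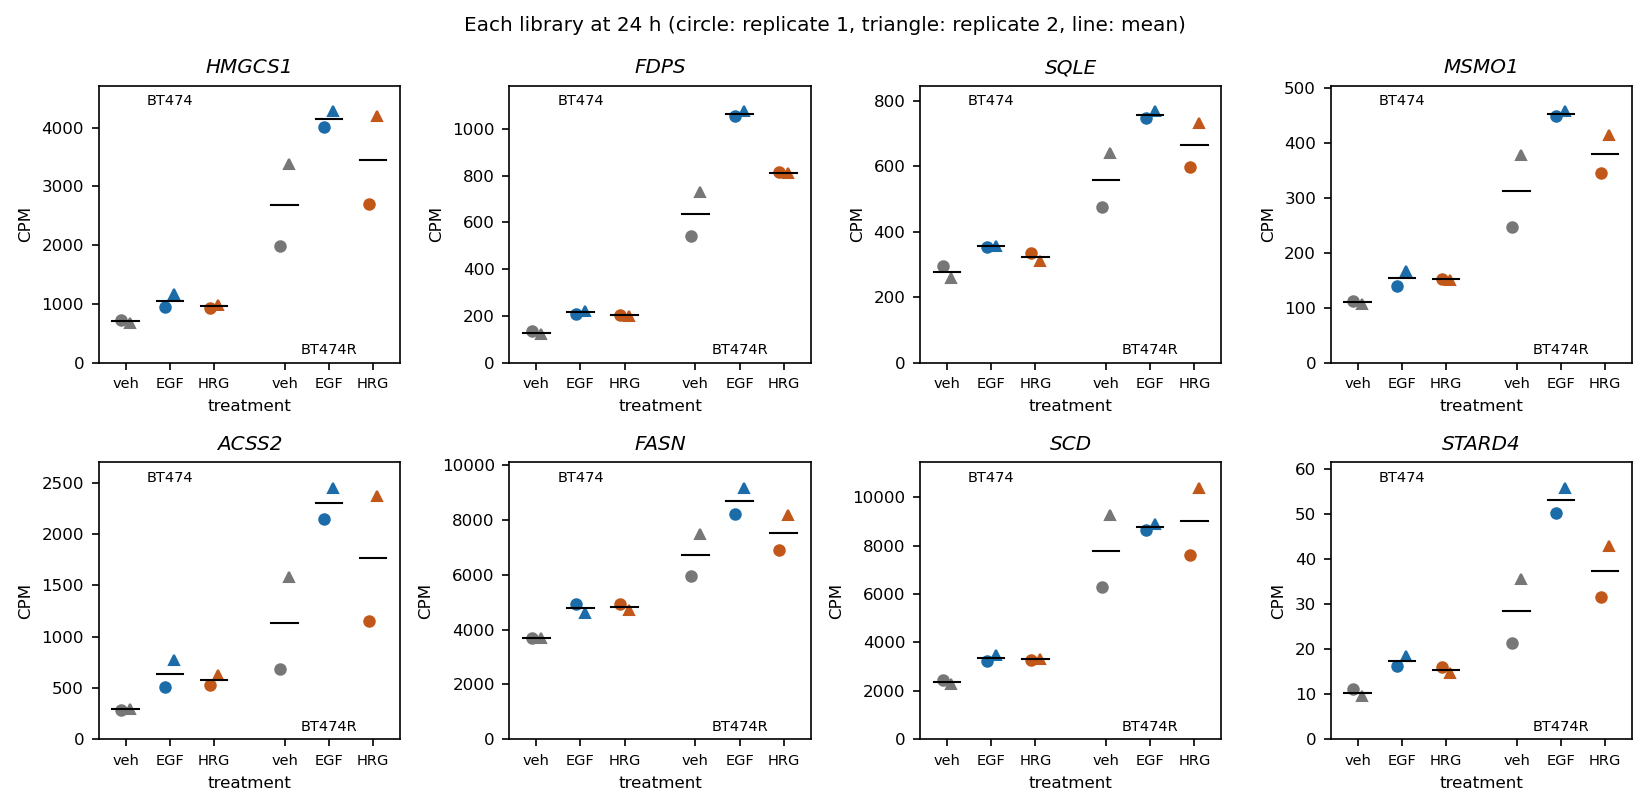
CPM (y axis, from 0) of 8 genes in each of the 12 libraries at 24 h, by line and treatment (x axis), with replicate 1 as a circle, replicate 2 as a triangle and the mean as a line. In BT474R replicate 2 of the vehicle is above replicate 1 in each of the 8 genes, as in HMGCS1 at 1984 and 3382 CPM.

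Within BT474R the 2 ligands were compared as well. No gene was called between HRG and EGF at 12 h by edgeR or DESeq2, where 1.42% of all genes were called, and 2 had an unadjusted p below 0.05. At 24 h FDPS was lower with HRG, with a difference of -0.38 (SE 0.11, adjusted p = 0.0454), at 814 and 810.4 CPM against 1054 and 1076 with EGF, and no other gene was called, where 5.18% were called. The call was lost with DESeq2 and without replicate 2 of HRG, replicate 1 of EGF or replicate 2 of EGF, and 6 other genes were called without replicate 2 of HRG. Without the filter on low counts 15 genes were called, all lower with HRG, where calls over all genes went from 1258 to 1672.

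Whether the ligand effects differed between the lines was tested as an interaction over all 40 libraries. For EGF at 24 h the effect on SC5D was larger in BT474R by 0.42 (SE 0.11, adjusted p = 0.0259), and no other gene was called, where 4.01% of all genes were called. SC5D was at 70.0 and 65.9 CPM in vehicle and 68.8 and 81.6 with EGF in BT474, and at 138 and 187 in vehicle and 236 and 244 with EGF in BT474R. The difference of SC5D ranged from 0.22 to 0.65 with 1 library left out, and its call was lost in 5 of the 8 cases. For EGF at 12 h and for HRG at 12 h and 24 h, none of the 29 was called by edgeR or by DESeq2, where 1.96%, 4.07% and 3.33% of all genes were called. At an unadjusted p below 0.05 there were 2, 1 and 1. At 24 h the calls and their direction depended on 1 library of the BT474R vehicle, with genes named here after their values were seen. Without replicate 1 of it, the HRG effect was lower in BT474R for 5 genes (MVD, FDPS, DHCR7, FASN and SCD) and the EGF effect for 3 (DHCR7, SCD and SREBF1). Without replicate 2 of it, the HRG effect was higher in BT474R for 3 genes (TM7SF2, SC5D and INSIG1) and the EGF effect for 5 (IDI1, HSD17B7, SC5D, ACLY and INSIG1). The ratios of mean mevalonate sums at 24 h were 1.47 with EGF and 1.36 with HRG in BT474, and 1.54 and 1.28 in BT474R. For the late sterol sums they were 1.24 and 1.16 in BT474 and 1.33 and 1.18 in BT474R, and for the fatty acid sums 1.35 and 1.33 in BT474 and 1.27 and 1.18 in BT474R.

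With these SEs, small differences between the lines could not be seen. The HRG effect on HMGCS1 at 24 h differed by -0.09 (SE 0.23) and that on ACSS2 by -0.34 (SE 0.34). The EGF effect on SCD at 24 h was 0.50 (SE 0.04) in BT474 and 0.17 (SE 0.14) in BT474R, a difference of -0.34 (SE 0.15, adjusted p = 0.302). A call in one line and not in the other, as for most genes with HRG at 24 h, is therefore not shown to be a difference between the lines.

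**Figure D5:**
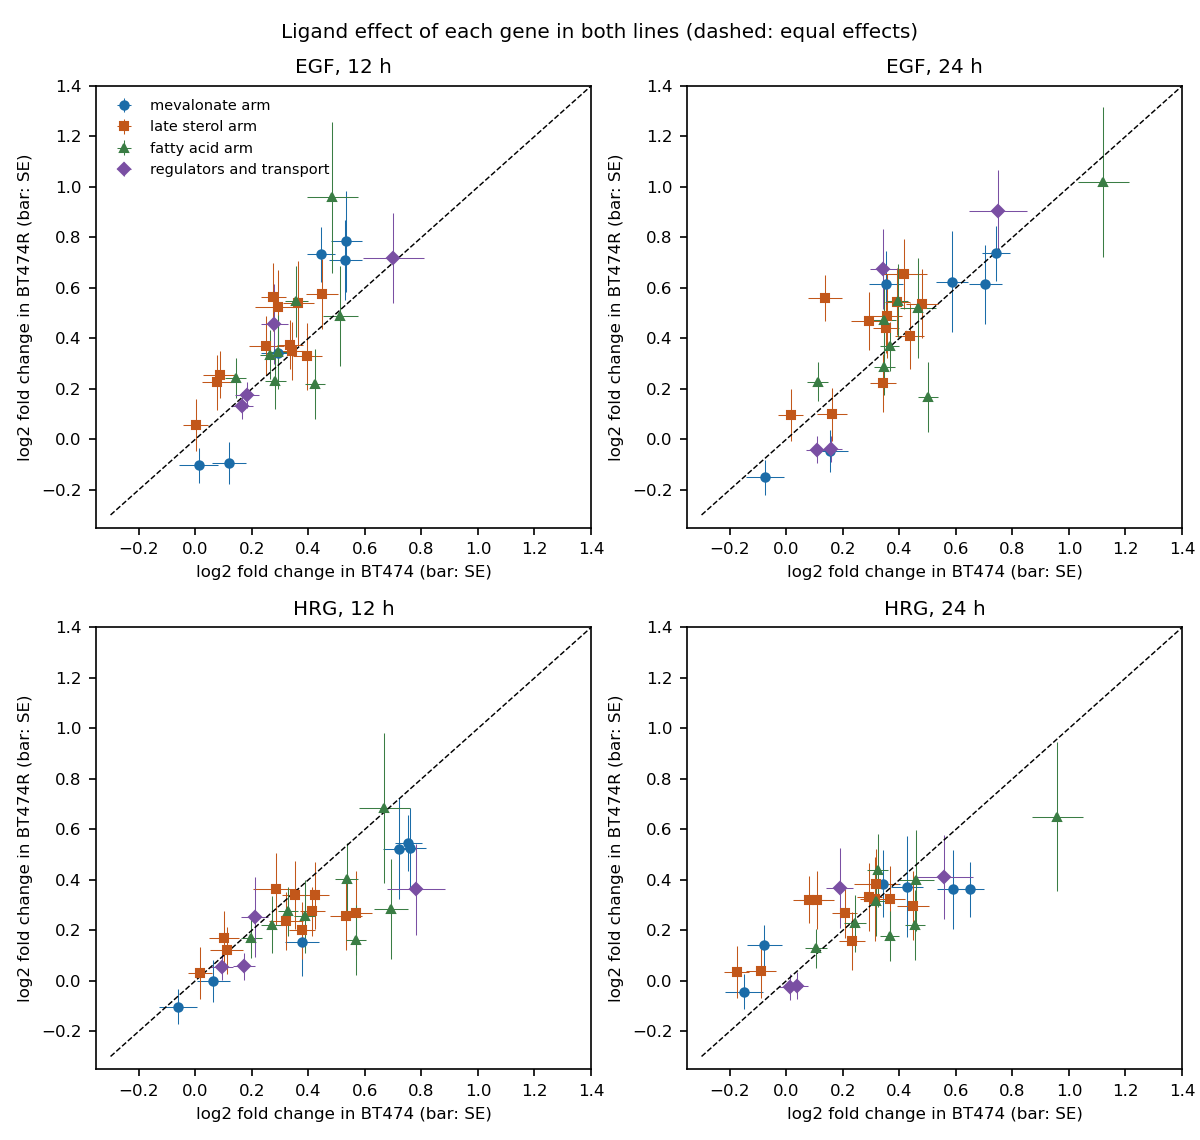
Log2 fold change against vehicle in BT474 (x axis) and BT474R (y axis) for each of the 29 genes, by ligand and time, with the SE as bars and a dashed line where the effects are equal. The bars are longer for BT474R, and ACSS2 lies at 1.12 and 1.02 with EGF at 24 h.

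Other genes of these routes were read from 6 lists with 61 names, of which 60 were in the table. At 24 h in BT474, EGF raised 14 and lowered 4 of the 60 tested, and HRG raised 17 and lowered 10. Over all genes 9.71% were called higher and 6.65% lower with EGF, and 12.5% and 11.6% with HRG. In BT474R, EGF raised 17 and lowered 6 of the 59 tested, and HRG raised 3 and lowered 1. The shares over all genes there were 9.95% higher and 7.37% lower with EGF, and 1.89% and 0.889% with HRG. The median change in BT474 on the log2 scale was 0.05 for EGF and 0.01 for HRG, below the 0.35 and 0.32 of the 29 genes. With EGF in BT474 LPIN1, a phosphatidate phosphatase, rose by 0.69 (SE 0.06, adjusted p = 1.70e-11), ACAT2, which makes acetoacetyl-CoA, by 0.56 and HSD17B12, an elongation reductase, by 0.45. FADS3, a relative of the FADS desaturases, fell, with a change of -0.35, as did ACSS1, the mitochondrial counterpart of ACSS2, at -0.31 (SE 0.05, adjusted p = 4.94e-06).

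With HRG in BT474 the 3 largest rises were those of LPIN1 at 0.62, HSD17B12 at 0.57 and DGAT2, which makes triglyceride, at 0.56. FABP5, a fatty acid carrier, fell, with a change of -0.70, as did ACSS1 at -0.55. In EGF-BT474R, ACSL4, an acyl-CoA synthetase of polyunsaturated fatty acids, rose by 1.31 (SE 0.34, adjusted p = 0.00946), HSD17B12 by 0.82 and ME1, the malic enzyme that makes NADPH, by 0.69. ACACB, the mitochondrial acetyl-CoA carboxylase, was at -0.93 (SE 0.10, adjusted p = 5.72e-07) and ACSS1 at -0.91. In HRG-BT474R the 4 genes called were HSD17B12 at 0.48, ME1 at 0.37, ELOVL5, an elongase, at 0.21 and ACSS1 at -0.41. ACSS1 was thus lower and HSD17B12 higher in all 4 ligand comparisons at 24 h.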

How the data were processed

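Paired-end mRNA libraries from 40 samples were sequenced, trimmed with Trim Galore 0.6.6, aligned to GRCh38.p13 with Rsubread and counted per gene by the authors, who deposited raw counts. Which annotation release and strand setting were used, and how multimapping reads were handled, is not given in the sources used here. The deposited counts were tested with edgeR 4.0.16 in R 4.3.3, with TMM scaling, genes kept at 1 count or more in at least 50% of the libraries, a quasi-likelihood F-test and Benjamini-Hochberg adjustment over all genes tested (25146 for BT474, 24287 for BT474R, 24641 in the joint model), called below 0.05. One model was fitted per line, and one over all 40 libraries for comparisons of the lines. Printed CPM were scaled by TMM over the 40 libraries. The SE is the log2 fold change divided by the square root of F. The script was tested on simulated data.

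Library totals were 16794594 to 33387936 counts. The alternatives were DESeq2 1.42.0, its size factors, no filter, a replicate block, fits of only the libraries compared and leaving out each library. The members and lists were chosen with earlier results of these data known. Named genes were all 29 members and, of the other pathway genes called at 24 h whose mean in that line reached 1 CPM, the 3 with the largest rise and the 3 with the largest fall in each ligand comparison, and 1 gene that this rule names is not reported here. Same-numbered libraries were not treated as pairs, since nothing says that they were grown together. Lengths come from merged GENCODE v44 exons.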

Additional observations from a re-analysis of the deposited data

Results flagged for a closer look

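Among the 29 genes, 5 results showed a difference between groups in the test of the difference itself (edgeR's quasi-likelihood test, adjusted over all genes tested). Over all genes, 0.517% were called for the EGF time effect and 2.50% for the HRG time effect in BT474. For the EGF effect at 24 h between the lines 4.01% were called. The other tests of this kind called none of the 29, where 0.0288% to 4.07% of all genes were called. Whether the 29 were called more often than all genes was not tested. In BT474 the EGF effect was larger at 24 h than at 12 h for FDPS, by 0.30 (SE 0.07, adjusted p = 0.032), and for ACSS2, by 0.64 (SE 0.13, adjusted p = 0.00766). The HRG effect in BT474 was smaller at 24 h than at 12 h for HMGCS1, with a difference of -0.30 (SE 0.08, adjusted p = 0.0319), and for FADS1, with one of -0.22 (SE 0.06, adjusted p = 0.0264). The EGF effect at 24 h on SC5D was larger in BT474R than in BT474 by 0.42 (SE 0.11, adjusted p = 0.0259). With 1 library left out, the difference of ACSS2 ranged from 0.29 to 0.92 that of FDPS from 0.20 to 0.37, that of HMGCS1 from -0.35 to -0.24, that of FADS1 from -0.28 to -0.16 and that of SC5D from 0.22 to 0.65. The call was lost in 3 of 8 cases for ACSS2, 4 of 8 for HMGCS1, and 5 of 8 for FDPS, FADS1 and SC5D. Groups of 2 libraries were not tested for single libraries that stand apart.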

How the results depend on the processing

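Counts below are of the 29 genes called. In the 2 comparisons of vehicle with T0, the 2 of the lines without ligand, and those of EGF or HRG with vehicle at 12 h and 24 h in BT474, every alternative other than leaving out a library gave a count within 1.5 times the reported one, and no gene called changed direction under any alternative run. Without the filter on low counts, the count of HRG against EGF in BT474 became 8 at 12 h (from 5) and 8 at 24 h (from 2), and that of the HRG time effect in BT474 became 6 (from 2). In BT474R without the filter, EGF gave 2 at 1 h (from 0) and 26 at 12 h (from 15), HRG gave 8 at 1 h (from 0), 23 at 12 h (from 1) and 21 at 24 h (from 0), and HRG against EGF gave 9 and 15 at 12 h and 24 h (from 0 and 1). Calls over all genes rose as well, for HRG in BT474R from 41 to 151 at 1 h, 1000 to 1577 at 12 h and 675 to 1147 at 24 h. Without the filter the tests of the lines' EGF effects gave 5 and 4 (from 0 and 1), and those of the HRG effects gave 5 and 5 (from 0 and 0), at 12 h and 24 h. DESeq2 gave 3 for HRG against EGF at 12 h in BT474, 1 for the EGF time effect in BT474 and 0 for HRG against EGF at 24 h in BT474R. With only the libraries compared, EGF at 1 h gave 5 in BT474 and 2 in BT474R, EGF at 12 h in BT474R 26, HRG in BT474R 5 at 1 h and 0 at 12 h, and HRG against EGF 9 and 0 in BT474 at 12 h and 24 h and 0 in BT474R at 24 h. That setting gave 1 and 4 for the EGF and HRG time effects in BT474, 6 and 0 for the lines' EGF effects at 12 h and 24 h, and 7 for their HRG effects at 12 h. The cause of these shifts was not tested.

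Same-numbered libraries deviated together in 4 of 45 pairs of groups in BT474 at a correlation over 0.1 (range -0.086 to 0.227). In BT474R 9 of 45 did (-0.181 to 0.357), and 6 were below -0.1. Vehicle with HRG at 24 h had the highest value of each line, 0.227 in BT474 and 0.357 in BT474R. At 24 h vehicle with EGF was at 0.144 and 0.0163, and HRG with EGF at 0.152 and 0.211. The numbers were not taken as a pairing, since nothing says that same-numbered libraries were grown together. A replicate block gave 2 and 3 for HRG in BT474R at 12 h and 24 h and 2 for HRG against EGF in BT474R at 24 h. A block within each time point, chosen after seeing the data, gave 8 and 8 for HRG against EGF in BT474 at 12 h and 24 h, 6 for the HRG time effect in BT474, 23 for EGF at 12 h in BT474R, 10 and 13 for HRG in BT474R at 12 h and 24 h, 2 for HRG against EGF in BT474R at 24 h and 1 for the lines' HRG effects at 12 h. Summing the copy rows of each gene name, over all genes and not only ACACA, LSS and FDFT1, was also chosen after seeing the data. It moved no count past 1.5 times.

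With each library left out in turn, counts ranged as follows in BT474. EGF against vehicle gave 2 to 7 at 1 h, 21 to 24 at 12 h and 21 to 24 at 24 h, and HRG gave 8 to 14, 22 to 23 and 19 to 21. HRG against EGF gave 1 to 4 and 0 to 5 at 12 h and 24 h, vehicle against T0 gave 21 to 23, and the EGF and HRG time effects gave 0 to 2 and 0 to 3. In BT474R EGF gave 0, 1 to 11 and 4 to 25, HRG gave 0, 0 to 1 and 0 to 22, HRG against EGF gave 0 and 0 to 6, vehicle against T0 gave 14 to 26, and the time effects gave 0 to 2 and 0. BT474R against BT474 gave 22 to 23 at T0 and 23 to 26 in vehicle, and the lines' EGF and HRG effects gave 0 at 12 h and 0 to 5 at 24 h. With 2 libraries a group, a group of 1 is assumed to vary like the others. DESeq2's size factors shifted the median of all genes by -0.0428 to 0.0239.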
